A study of Homo sapiens with 6 samples.

Results

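The 7 UGT2B genes described here are UGT2B4, UGT2B7, UGT2B10, UGT2B11, UGT2B15, UGT2B17 and UGT2B28. Their enzymes attach glucuronic acid to lipophilic molecules, among them androgens for some members. The genes were chosen by gene name, with the changes of some of them in these data already known. Each name had 1 entry in the deposited tables. They are 7 of 47032 gene symbols. All 7 reached the mean of 1 scaled FPKM (fragments per length and library total, then scaled between libraries) required of a tested gene, as did 16284 genes in all. UGT2B7 was the member nearest that limit, with a mean of 1.65, and the pseudogene UGT2B27P, the nearest UGT2 entry under it, had a mean of 0.605. The pseudogenes UGT2B25P and UGT2B24P also passed the limit and are no members.

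RNA was sequenced from 6 human prostate cancer cell lines, 1 library each, with a SOLiD total RNA kit. LnCaP, VCaP and LAPC4 are labelled castration sensitive, meaning that they depend on androgen, and were grown with 10% fetal bovine serum (FBS), in RPMI medium for LnCaP and LAPC4 and in DMEM for VCaP. The lines labelled castration resistant are LnCaP-abl, VCaP-CR and LAPC4-CR, which share a parental line with them by name, and were grown in RPMI with 10% charcoal-stripped FBS, which is depleted of steroids, and B27 supplement. No other treatment was given, and no genotype or transgene is stated. The resistant state, the stripped serum and the B27 supplement cannot be told apart in any of the 3 pairs. In the VCaP pair the basal medium, DMEM against RPMI, cannot be told apart from them either. Each state of a parental line rests on 1 culture as far as the labels go, so a change within a pair has no replicate check and no p-value.

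UDP-glucuronosyltransferases of the UGT2B family sit in the membrane of the endoplasmic reticulum. They transfer glucuronic acid from UDP-glucuronic acid to a group of their substrate, such as a hydroxyl. The substrate thereby becomes water soluble and ready for export. In the prostate, UGT2B15 and UGT2B17 are known for inactivating dihydrotestosterone and its metabolites androsterone and androstanediol. Both genes are known to be repressed by androgen in LnCaP cells.

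The 7 genes lie in a single cluster on chromosome 4, and all coordinates of genes here are those of the deposited tables (hg18, the build named in the submitters' processing notes). Along the chromosome come UGT2B17 (ENSG00000197888, chr4:69085497-69116840), UGT2B15 (ENSG00000196620, chr4:69194943-69218941), UGT2B10 (ENSG00000109181, chr4:69716300-69731503) and UGT2B7 (ENSG00000171234, chr4:69951670-70013294). UGT2B11 (ENSG00000213759, chr4:70100258-70115038), UGT2B28 (ENSG00000135226, chr4:70180806-70195357) and UGT2B4 (ENSG00000156096, chr4:70380472-70426321) follow. The span is 1341 kb, and the tables class all 7 as protein-coding.

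The members are close copies, which limits how well short reads can be assigned to them. In GENCODE release 29 transcripts, the coding sequences of UGT2B15 and UGT2B17 were 96.5% identical (55 differences), and those of UGT2B11 and UGT2B28 were 97.0% identical (47 differences). The least alike pair, UGT2B15 and UGT2B28, was 83.7% identical. The same 60 bases of the first coding exon are shown for each member, read 5′ to 3′ on the coding strand, to let the reader see where the copies part. Among gap-free windows of that exon, this one was picked for holding the most differences between UGT2B15 and UGT2B17. It thus shows these copies as less alike than they are over the whole coding sequence. Capitals mark bases that differ from UGT2B17.
UGT2B17 (GRCh38, chr4:68568068-68568127, minus strand): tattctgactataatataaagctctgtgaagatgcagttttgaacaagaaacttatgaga
UGT2B15 (GRCh38, chr4:68670202-68670261, minus strand): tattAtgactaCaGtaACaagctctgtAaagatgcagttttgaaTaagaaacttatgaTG
UGT2B10 (GRCh38, chr4:68816371-68816430, plus strand): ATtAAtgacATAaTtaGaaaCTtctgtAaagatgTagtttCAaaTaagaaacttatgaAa
UGT2B7 (GRCh38, chr4:69096875-69096934, plus strand): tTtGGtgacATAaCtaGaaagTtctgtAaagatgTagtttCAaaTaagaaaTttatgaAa
UGT2B11 (GRCh38, chr4:69214309-69214368, minus strand): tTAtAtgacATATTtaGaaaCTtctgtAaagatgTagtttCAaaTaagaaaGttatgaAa
UGT2B28 (GRCh38, chr4:69280855-69280914, plus strand): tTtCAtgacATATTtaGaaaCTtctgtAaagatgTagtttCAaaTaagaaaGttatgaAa
UGT2B4 (GRCh38, chr4:69495448-69495507, minus strand): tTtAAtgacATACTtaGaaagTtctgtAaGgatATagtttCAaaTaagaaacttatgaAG

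In this window UGT2B15 differed from UGT2B17 at 9 bases, and the other 5 members differed from it at 16 to 19 bases. UGT2B11 and UGT2B28 each differed from it at 18. Over whole transcripts, 36.8% of the 35-base stretches of UGT2B17 also occurred in another gene's transcripts, and 34.5% of all its stretches occurred in UGT2B15. The share was 58.5% for UGT2B11, 52.8% for UGT2B28, 47.8% for UGT2B10, 18.5% for UGT2B7 and 10.1% for UGT2B4. UGT2B4 and UGT2B7 are thus the members whose counts can be assigned most fully. Neither the read length nor the handling of reads that match several copies is given in the sources used here, so the split within each near-identical pair is uncertain, and the sum of the family is given beside the single genes.

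The summed level of the 7 members was 20.2 scaled FPKM in LnCaP against 543 in LnCaP-abl. VCaP had a sum of 51.2 and VCaP-CR one of 18.9, and LAPC4 had 71.9 against 11.3 for LAPC4-CR. LnCaP-abl stood above the other 5 libraries, and among the sensitive lines LAPC4 was the highest and LnCaP the lowest. Behind these sums are 392 and 13327 counts for the LnCaP pair, sensitive line first, 1112 and 671 for the VCaP pair, and 2028 and 613 for the LAPC4 pair. In LnCaP-abl they made up 0.122% of all counts, against 0.00273% to 0.0164% in the other 5 libraries. The sum was 27.0-fold higher in LnCaP-abl than in LnCaP (95% counting interval 24.4 to 29.9), 2.71-fold lower in VCaP-CR than in VCaP (2.46 to 2.99) and 6.36-fold lower in LAPC4-CR than in LAPC4 (5.81 to 6.98). Less RNA per cell and fewer cells that carry the RNA cannot be told apart in such bulk samples.

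**Figure D1:**
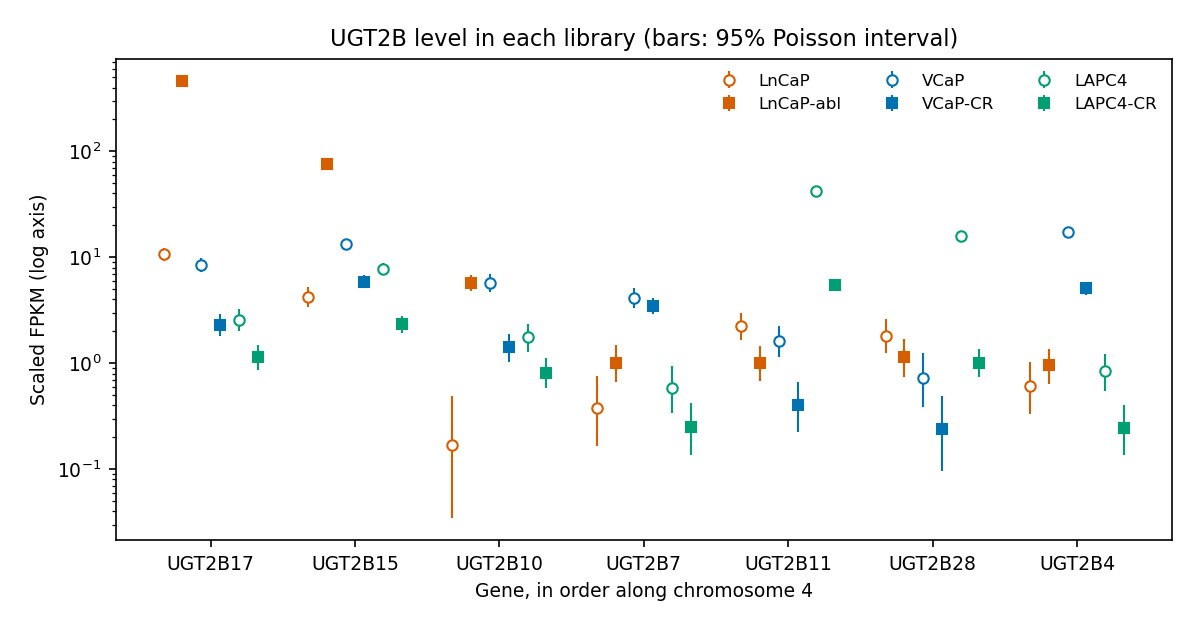
Level of each UGT2B member in scaled FPKM on a log axis, in order along chromosome 4, for the 6 libraries (open circles sensitive lines, filled squares resistant lines, colours for the parental line, bars 95% Poisson intervals of the count). UGT2B17 in LnCaP-abl, at 457, is the highest value, and UGT2B11 in LAPC4, at 42.6, is the highest outside LnCaP-abl.

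UGT2B17 and UGT2B15 inactivate dihydrotestosterone and its metabolites. UGT2B17 was measured at 10.7 scaled FPKM in LnCaP (205 counts) against 457 in its resistant partner LnCaP-abl (11222 counts), at 8.46 in VCaP against 2.31 in VCaP-CR, and at 2.57 in LAPC4 against 1.14 in LAPC4-CR. The level in LnCaP-abl lay far above those of the other 5 libraries, of which LnCaP was the highest. It was 43.0-fold above LnCaP (37.4 to 49.6), a log2 change of 5.30. In the other 2 pairs UGT2B17 was lower in the resistant line, 3.66-fold in VCaP-CR (2.78 to 4.86) and 2.25-fold in LAPC4-CR (1.56 to 3.24). Here and below, the log2 change is the resistant minus the sensitive line on log2(scaled FPKM + 1), which understates changes at low levels, while folds are ratios of scaled FPKM with exact 95% intervals that cover counting error only.

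UGT2B15 had 4.26 scaled FPKM in LnCaP (82 counts) against 76.1 in LnCaP-abl (1866 counts), 13.3 in VCaP against 5.88 in VCaP-CR, and 7.79 in LAPC4 against 2.33 in LAPC4-CR. LnCaP-abl was again the highest, and within the VCaP and LAPC4 pairs the sensitive line was higher. The level was 17.9-fold higher in LnCaP-abl than in LnCaP (14.3 to 22.6), and 2.26-fold lower in VCaP-CR (1.87 to 2.73) and 3.35-fold lower in LAPC4-CR (2.66 to 4.22) than in the sensitive line. The number of UGT2B15 counts per UGT2B17 count was 0.40 in LnCaP (0.306 to 0.519) and 0.166 in LnCaP-abl (0.158 to 0.175), and 1.57 to 3.03 in the other 4 libraries. UGT2B17 thus exceeded UGT2B15 in both LnCaP lines, and UGT2B15 exceeded UGT2B17 in the VCaP and LAPC4 lines. How far reads of one copy were assigned to the other was not tested.

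UGT2B10, known for attaching glucuronic acid to nitrogen atoms of nicotine and other amines, had 3 counts in LnCaP (0.168 scaled FPKM) and 131 in LnCaP-abl (5.74). VCaP held 109 counts (5.77) and VCaP-CR 44 (1.42), and LAPC4 held 44 (1.76) and LAPC4-CR 39 (0.814). LnCaP was the lowest library and LnCaP-abl and VCaP the highest. The ratio of LnCaP-abl to LnCaP was 34.3, with a wide interval of 11.5 to 168 because only 3 counts stood in LnCaP. UGT2B10 was 4.06-fold lower in VCaP-CR (2.84 to 5.90) and 2.17-fold lower in LAPC4-CR (1.38 to 3.42) than in the sensitive line.

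UGT2B7 acts on a broad range of substrates, among them morphine, estrogens and androgen metabolites. Its scaled FPKM was 0.382 in LnCaP against 1.01 in LnCaP-abl, 4.16 in VCaP against 3.50 in VCaP-CR, and 0.582 in LAPC4 against 0.25 in LAPC4-CR. Both VCaP lines were above the other 4 libraries. The VCaP lines differed 1.19-fold, with an interval of 0.898 to 1.57 that includes 1. UGT2B7 was 2.65-fold higher in LnCaP-abl than in LnCaP (1.17 to 6.74), and 2.33-fold lower in LAPC4-CR than in LAPC4 (1.08 to 5.11).

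UGT2B4, a bile acid conjugating enzyme best known from the liver, had 17.2 scaled FPKM in VCaP (419 counts) and 5.13 in VCaP-CR (205 counts). The other 4 libraries, with 14 to 28 counts each, ranged from 0.243 to 0.953. The VCaP lines thus stood apart from the rest. UGT2B4 was 3.35-fold lower in VCaP-CR than in VCaP (2.83 to 3.98) and 3.46-fold lower in LAPC4-CR than in LAPC4 (1.77 to 6.99), while in the LnCaP pair the interval of 0.799 to 3.23 around a ratio of 1.57 includes 1. Of 10 hepatocyte markers, 2 were also higher in the VCaP lines. The summed level of the 10 was 17.1 scaled FPKM for VCaP and 27.3 for VCaP-CR against 2.68 to 4.66 in the other 4 libraries. Albumin (ALB) had 220 and 391 counts in VCaP and VCaP-CR and 4 to 15 elsewhere, and TTR (transthyretin) had 78 and 314 counts and 0 to 11 elsewhere, with the 0 in LnCaP-abl. The other 8 markers summed to 3.15 in VCaP and 1.99 in VCaP-CR, against 2.24 to 3.18 in the other 4 libraries. The part of ALB- and TTR-expressing cells in the UGT2B4 level was not tested.

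UGT2B11 and UGT2B28 are the near-identical pair whose physiological substrates are less well known; UGT2B28 has been reported to act on steroids. UGT2B11 was measured at 42.6 scaled FPKM in LAPC4 (1288 counts) against 5.51 in LAPC4-CR (320 counts), at 2.26 in LnCaP against 1.01 in LnCaP-abl, and at 1.61 in VCaP against 0.399 in VCaP-CR. Both LAPC4 lines lay above the other 4 libraries, and in each pair the resistant line was the lower. UGT2B11 was 7.73-fold lower in LAPC4-CR (6.83 to 8.76), 4.04-fold lower in VCaP-CR (2.17 to 7.93) and 2.23-fold lower in LnCaP-abl (1.37 to 3.69) than in the sensitive line.

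UGT2B28 was also highest in LAPC4, with 15.8 scaled FPKM in LAPC4 (374 counts) and 1.01 in LAPC4-CR (46 counts). It had 1.82 in LnCaP (31 counts) against 1.15 in LnCaP-abl (25 counts), and 0.724 in VCaP (13 counts) against 0.238 in VCaP-CR (7 counts). Unlike for UGT2B11, LAPC4-CR lay within the range of the LnCaP and VCaP lines. UGT2B28 was 15.6-fold lower in LAPC4-CR (11.5 to 21.7) and 3.04-fold lower in VCaP-CR (1.13 to 9.01) than in the sensitive line, and the LnCaP pair's 1.58-fold lower value has an interval of 0.903 to 2.79 that includes 1. There were 0.290 UGT2B28 counts per UGT2B11 count in LAPC4 (0.258 to 0.326) and 0.144 in LAPC4-CR (0.103 to 0.196), intervals that do not overlap.

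**Figure D2:**
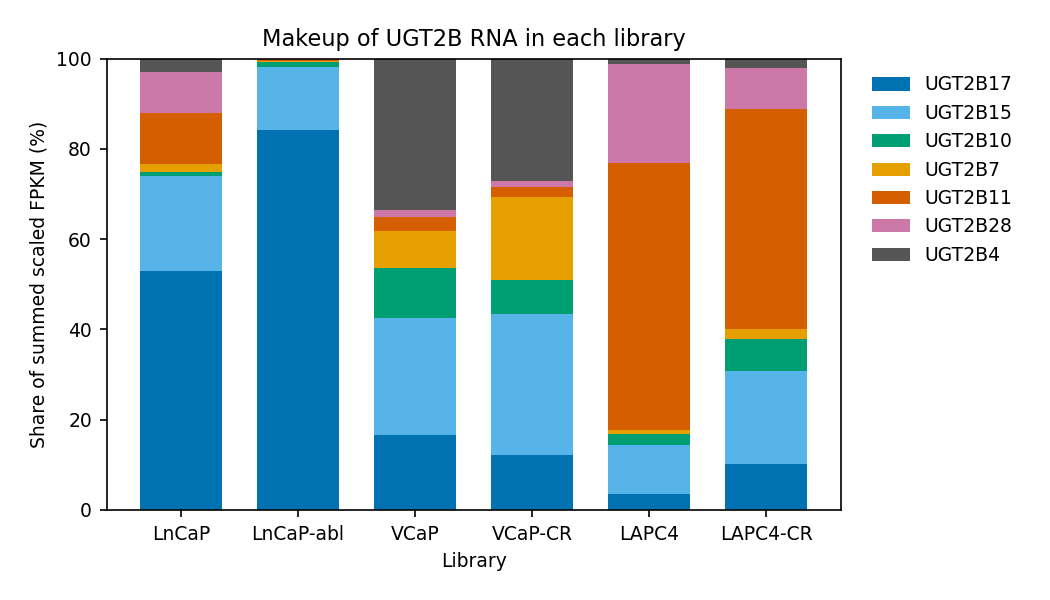
Share of each member in the summed scaled FPKM of the family, in percent, for the 6 libraries. UGT2B17 and UGT2B15 fill most of LnCaP-abl, UGT2B4 and UGT2B15 are the largest shares in the VCaP lines, and UGT2B11 is the largest in the LAPC4 lines.

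The makeup of the family differed between the parental lines, as the plot of shares shows. By scaled FPKM, UGT2B17 made up 52.9% of the family in LnCaP and 84.2% in LnCaP-abl. Its share of family counts was 52.3% (exact 95% interval 47.2 to 57.3) and 84.2% (83.6 to 84.8). In VCaP the leading member was UGT2B4 with 33.6% of the summed level, followed by UGT2B15 with 25.9%; in VCaP-CR these were 27.2% and 31.1%, and the intervals of their levels overlapped. UGT2B7 made up 8.13% of the sum in VCaP against 18.6% in VCaP-CR. In LAPC4, UGT2B11 made up 59.2% and UGT2B28 21.95%, and in LAPC4-CR UGT2B11 made up 48.8% and UGT2B15 20.6%.

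Neighbours in the order of levels could not always be told apart. In LnCaP the intervals of UGT2B11 and UGT2B28 overlapped, and so did those of UGT2B4, UGT2B7 and UGT2B10. In LnCaP-abl the overlap ran through UGT2B28, UGT2B11, UGT2B7 and UGT2B4, while UGT2B17, UGT2B15 and UGT2B10 were each apart. As a floor, 7 milk and saliva protein genes of the same region, picked after the data had been seen because prostate cells should lack them, reached at most 0.863 scaled FPKM in LnCaP and 0.322 to 0.568 in the other libraries. At or under that floor were UGT2B4, UGT2B7 and UGT2B10 in LnCaP, UGT2B28 in VCaP-CR, and UGT2B4 and UGT2B7 in LAPC4-CR, and their levels there are not told apart from it.

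**Figure D3:**
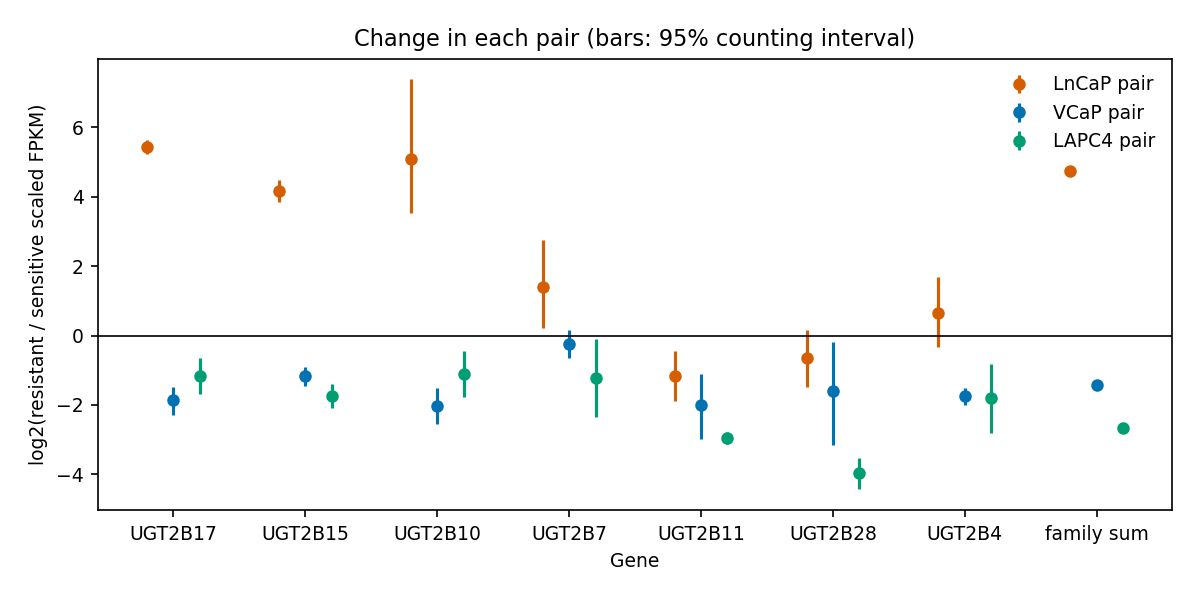
Ratio of the resistant to the sensitive line in scaled FPKM, on a log2 axis, for each member and the family sum in the 3 pairs (points are ratios, bars exact 95% counting intervals). In the LnCaP pair 5 members lie above 0 and UGT2B11 and UGT2B28 lie below; in the VCaP and LAPC4 pairs all 7 lie below 0.

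Counted by log2 change, 5 members were higher and 2 lower in LnCaP-abl than in LnCaP, and all 7 were lower in VCaP-CR and in LAPC4-CR than in their sensitive lines. At least 2-fold higher in LnCaP-abl, a log2 change of 1 or more, were 3 of 7 (UGT2B17, UGT2B15 and UGT2B10), where 6.26% of all tested genes were. At least 2-fold lower in VCaP-CR were 4 of 7 (UGT2B4, UGT2B17, UGT2B10 and UGT2B15), where 2.05% of tested genes were, and 3 of 7 in LAPC4-CR (UGT2B28, UGT2B11 and UGT2B15), where 5.37% were. The genes had been picked with such changes known, so nothing is read from these shares. The median log2 change over the 7 members was 0.54 for the LnCaP pair, -1.05 for VCaP and -0.74 for LAPC4, beside -0.01, -0.01 and -0.02 over all tested genes.

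The change of the sum rested on different members in different pairs. Without UGT2B15 and UGT2B17 the sum of the remaining 5 members was 1.88-fold higher in LnCaP-abl than in LnCaP (1.49 to 2.39). For all 7 it was 27.0-fold. The remaining rise lay mostly in UGT2B10, at 0.168 scaled FPKM in LnCaP and 5.74 in LnCaP-abl. UGT2B4 (0.607 and 0.953) and UGT2B7 (0.382 and 1.01) were higher by less. In LnCaP, UGT2B10, UGT2B4 and UGT2B7 were at or under the floor. UGT2B11 and UGT2B28 together were lower, at 4.08 and 2.17. Without UGT2B11 and UGT2B28 the sum was 2.83-fold lower in LAPC4-CR (2.40 to 3.34), in place of 6.36-fold. In the VCaP pair the sum was 2.68-fold to 2.76-fold lower without either of these pairs of copies, close to the 2.71-fold of all 7.

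Across the 3 pairs, edgeR's quasi-likelihood test with the parental line as a block called 0 of 16284 genes in either direction after Benjamini-Hochberg adjustment at 5%, a share of 0%, and 0 of the 7 members. At an unadjusted p under 0.05 it had 732 genes higher and 560 lower, and DESeq2 called 82 higher and 55 lower. The members' changes across pairs are given as a description. UGT2B11 was lower in 3 of 3 pairs, with a fitted log2 change of -2.08 (SE 0.43), and UGT2B28 was lower in 3 of 3, at -2.16 (SE 0.72). The UGT2B28 value was -1.02 without the LAPC4 pair and -3.13 without the LnCaP pair. UGT2B11 was the one member that DESeq2 placed under the threshold. UGT2B17, at 0.15 (SE 1.60), and UGT2B15, at 0.01 (SE 1.48), were higher in 1 pair and lower in 2. Without the LnCaP pair they were -1.51 and -1.44, and without the VCaP pair 2.26 and 1.24.

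Over the 6 libraries some pairs of members correlated closely. Pearson's r of log2(scaled FPKM + 1) was 0.92 for UGT2B15 with UGT2B17, 0.93 for UGT2B11 with UGT2B28, and 0.95 for UGT2B4 with UGT2B7. These are descriptions over 6 libraries from 3 parental lines, and the first 2 of these pairs share long identical stretches of sequence. Each r leans on the libraries where both genes of the pair were highest. These were LnCaP-abl for UGT2B15 and UGT2B17, LAPC4 for UGT2B11 and UGT2B28, and the VCaP lines for UGT2B4 and UGT2B7. Outside LnCaP-abl, UGT2B15 was highest in VCaP (13.3 scaled FPKM) and UGT2B17 in LnCaP (10.7). No r was computed without these libraries. UGT2B4 and UGT2B7 were 90.3% identical in coding sequence, and the share of the 35-base stretches of UGT2B7 found in any other gene was 18.5%. UGT2B10 had its highest r with UGT2B15, at 0.82, although its coding sequence was closer to UGT2B11 (94.8% identical, r of -0.21) than to UGT2B15 (84.7%).

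The upstream sequence of UGT2B10 also resembled that of UGT2B11 more than that of UGT2B15. RefSeq start sites (GRCh38.p14) were available for 4 of the 7 members, namely UGT2B15, UGT2B10, UGT2B7 and UGT2B11. Over the 250 bases before the start, UGT2B10 and UGT2B11 were 90.2% identical, with 25 differences, and the other 5 pairs of promoters were 57.6% to 70.0% identical. The promoters of UGT2B10, UGT2B11 and UGT2B15 are shown because the first 2 are nearly alike while UGT2B10 was higher and UGT2B11 lower in LnCaP-abl, and UGT2B15, like UGT2B10, was higher there. Capitals mark the letters TATAAG.
UGT2B10 (chr4:68815744-68815993, plus strand): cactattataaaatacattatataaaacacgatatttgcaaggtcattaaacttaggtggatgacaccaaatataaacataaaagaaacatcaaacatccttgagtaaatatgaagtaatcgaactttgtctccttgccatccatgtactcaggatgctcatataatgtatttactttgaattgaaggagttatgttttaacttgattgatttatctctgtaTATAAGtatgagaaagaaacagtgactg
UGT2B11 (chr4:69214749-69214998, minus strand): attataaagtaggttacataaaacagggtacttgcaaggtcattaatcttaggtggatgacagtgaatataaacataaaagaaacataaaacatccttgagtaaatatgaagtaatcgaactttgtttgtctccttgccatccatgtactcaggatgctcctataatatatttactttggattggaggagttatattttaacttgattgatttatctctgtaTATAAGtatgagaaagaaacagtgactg
UGT2B15 (chr4:68670653-68670902, minus strand): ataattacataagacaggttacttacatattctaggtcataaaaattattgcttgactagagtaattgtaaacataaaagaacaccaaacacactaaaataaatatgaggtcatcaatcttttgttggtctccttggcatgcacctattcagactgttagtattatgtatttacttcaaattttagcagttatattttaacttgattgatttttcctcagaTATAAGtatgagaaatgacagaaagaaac

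TATA letters shortly before a start site are a common core promoter feature. Searched on both strands, the letters TATAAG were found in 4 of 4 member promoters, against 5.03% of 35116 promoters of the same length. The member promoters belong to related genes and are 57.6% to 90.2% identical, so the 4 matches are not independent. The letters TATAAG began 28 bases before the start in UGT2B10 and UGT2B11, 29 in UGT2B15 and 59 in UGT2B7, where the match to the complement overlaps them. The forkhead letters TGTTTAC (2.98% of all promoters) were found in UGT2B15, between 183 and 177 bases before the start. They were not found in these windows of the other 3. Only these exact letters and their complement were searched for. Where UGT2B15 reads gtaaacataaaag, UGT2B10, UGT2B11 and UGT2B7 read ataaacataaaag, so the absence of a match rests on the first base of this stretch. A match describes letters and shows no binding.

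**Figure D4:**
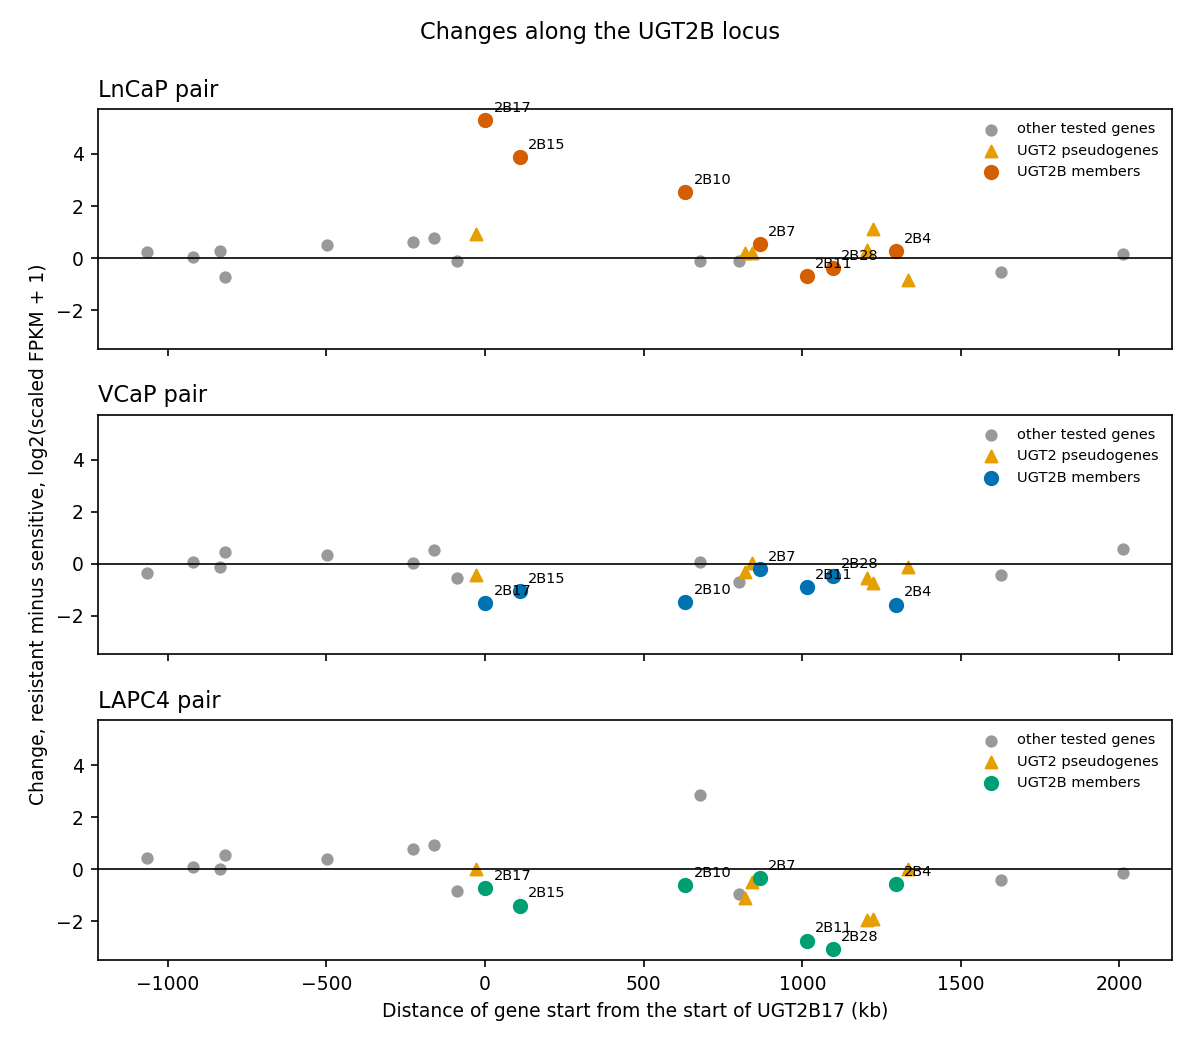
Change of the members, the other UGT2 entries and the other tested neighbours within 1 Mb, resistant minus sensitive on log2(scaled FPKM + 1), against the distance of the gene start from that of UGT2B17 in kb, one panel per pair. In the LnCaP pair the 3 highest points are UGT2B17, UGT2B15 and UGT2B10, and in the LAPC4 pair the 2 lowest are UGT2B28 and UGT2B11.

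Among the genes around the cluster, the highest log2 change in the LnCaP pair was 1.11. Of 85 other genes within 1 Mb on either side or inside the span, 14 were tested. At least 2-fold higher in LnCaP-abl was 1 of 14 (6.26% of all tested genes), a UGT2B pseudogene listed as RP11-790I12.2 (UGT2B24P by its identifier) with 9 counts in LnCaP against 42 in LnCaP-abl. In VCaP-CR 0 of 14 were at least 2-fold higher (2.38% of all tested genes) and 0 were at least 2-fold lower (2.05%). In LAPC4-CR 1 of 14 was at least 2-fold higher (5.26%), RP11-468N14.4 with 0 counts in LAPC4 and 43 in LAPC4-CR, and 2 of 14 were at least 2-fold lower (5.37%).

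Both lower neighbours were UGT2B pseudogenes that lie between UGT2B28 and UGT2B4. RP11-790I12.1 (UGT2B25P) had 151 counts in LAPC4 and 46 in LAPC4-CR, a log2 change of -1.94, and RP11-790I12.2 had 102 and 30 counts, a log2 change of -1.89. Their LAPC4 levels, 7.32 and 6.31 scaled FPKM, were their highest among the 6 libraries, as for UGT2B11 and UGT2B28. Of the 50-base stretches of UGT2B11, 22.4% also occurred in UGT2B25P, so their counts may hold reads of UGT2B11, which was not tested. The protein-coding relatives inside the cluster or at its edge, UGT2A3 (5 to 15 counts) and UGT2A1 (12 to 25 counts), stayed low in all 6 libraries.

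Few other glucuronosyltransferases were measurable. Of 14 genes of the UGT1A, UGT2A, UGT3A and UGT8 families in the tables, 1 was tested. This was UGT8, which attaches galactose to ceramide, and it was at least 2-fold higher in LnCaP-abl, at 4.58 scaled FPKM against 1.22 in LnCaP. The 9 UGT1A genes had 0 to 20 counts in each library.

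Genes that supply UDP-glucuronic acid or remove the conjugates were tested as 2 lists. Of 10 supply genes, 1 was at least 2-fold higher and 1 lower in LnCaP-abl (6.26% and 6.28% of all tested genes), 2 were higher in VCaP-CR (2.38%) and 1 was higher in LAPC4-CR (5.26%). The list's median log2 changes were 0.51 (LnCaP pair), 0.34 (VCaP) and 0.17 (LAPC4), where the medians of all tested genes were -0.01, -0.01 and -0.02. UGDH, which makes UDP-glucuronic acid, had 18.5 scaled FPKM in VCaP against 39.0 in VCaP-CR, with log2 changes of 0.19 and 0.12 in the LnCaP and LAPC4 pairs. UGP2, which makes the UDP-glucose it uses, had log2 changes of 1.06 (LnCaP pair), 0.93 (VCaP) and 0.25 (LAPC4). HK2, a hexokinase that traps glucose, had log2 changes of -1.71, 1.43 and 0.78 in the same order.

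Of 5 tested genes for export or cleavage of conjugates, 2 were at least 2-fold lower in LnCaP-abl (6.28% of all tested genes). In VCaP-CR 0 passed 2-fold, beside 2.38% of all tested genes higher and 2.05% lower. In LAPC4-CR 1 was higher (5.26%) and 2 were lower (5.37%). The transporter ABCC4 had 17.1 scaled FPKM in LnCaP and 5.45 in LnCaP-abl, and 15.9 in LAPC4 and 0.714 in LAPC4-CR, and its log2 change in the VCaP pair was -0.33. ABCC1, another exporter, had log2 changes of -1.32 (LnCaP pair), -0.73 (VCaP) and -1.51 (LAPC4). ABCG2 was the gene that was higher, with 33 counts in LAPC4 and 565 in LAPC4-CR. GUSB, the lysosomal glucuronidase, had log2 changes of -0.59, -0.80 and 0.20 in that order.

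Of 10 tested genes of androgen synthesis and catabolism, 1 was at least 2-fold higher in LnCaP-abl (6.26% of all tested genes), 1 was lower in VCaP-CR (2.05%), and 1 was higher (5.26%) and 1 lower (5.37%) in LAPC4-CR. The sulfotransferase SULT2B1 had log2 changes of 1.46 and 1.44 in the LnCaP and LAPC4 pairs. HSD17B6, which oxidises androstanediol, had 10.2 scaled FPKM in VCaP against 3.04 in VCaP-CR. HSD17B11, another 17-beta-hydroxysteroid dehydrogenase, had 181 counts in LAPC4 and 66 in LAPC4-CR. AKR1C3, which makes testosterone from androstenedione, was measured at 19.1 scaled FPKM in VCaP, 11.0 in VCaP-CR, and between 0.179 and 0.672 elsewhere.

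**Figure D5:**
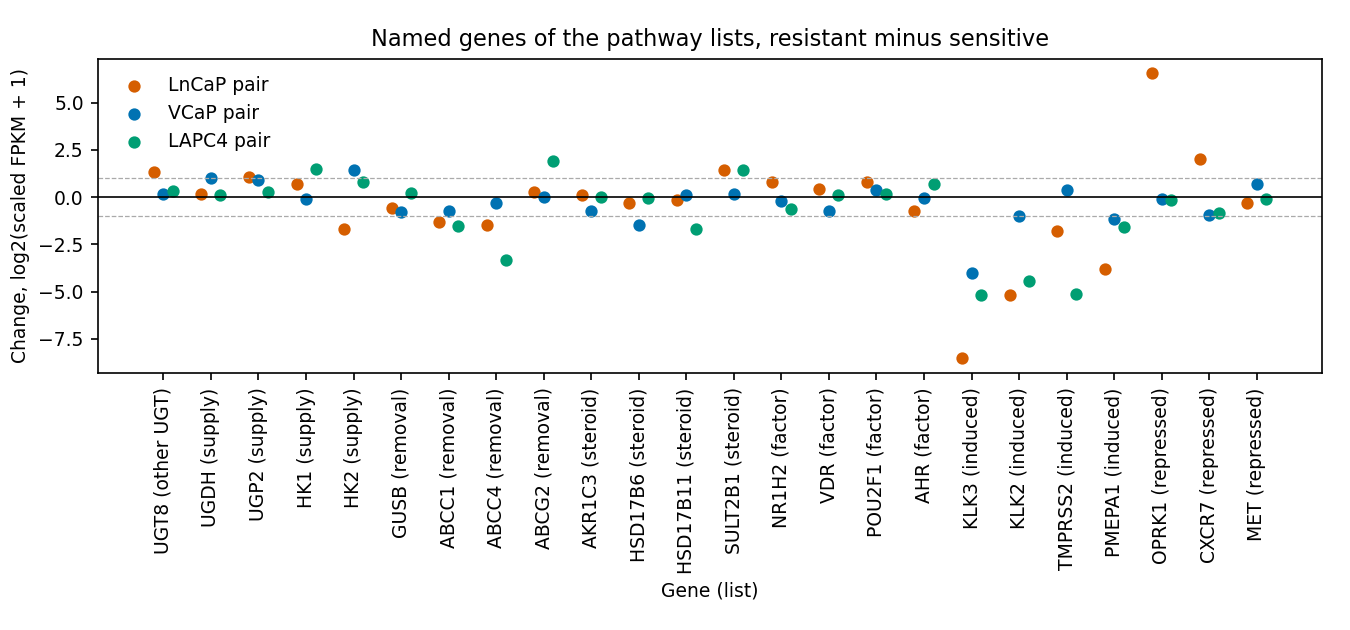
Change in each pair, resistant minus sensitive on log2(scaled FPKM + 1), for the named genes of the lists of other UGT enzymes, UDP-glucuronate supply, removal of conjugates, steroid metabolism, transcription factors, and androgen-induced and androgen-repressed genes (dashed lines mark 2-fold). KLK3 lies below -4 in all 3 pairs, and OPRK1 lies above 6 in the LnCaP pair.

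Of 17 transcription factors known to act on UGT2B genes, 10 were tested, and 0 of these 10 passed 2-fold in any pair. Past that limit, over all tested genes, were 6.26% upward and 6.28% downward in the LnCaP pair. These shares were 2.38% and 2.05% in the VCaP pair and 5.26% and 5.37% in the LAPC4 pair. With shares this low, a count of 0 among 10 does not set these factors apart from other genes. The named factors NR1H2, VDR, POU2F1 and AHR had log2 changes between -0.74 and 0.80. FOXA1, a forkhead factor named for the letters above after its values had been seen, was measured at 67.6 to 136 scaled FPKM in the 6 libraries, and its log2 changes were 0.37 (LnCaP pair), 0.01 (VCaP) and -0.34 (LAPC4).

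Androgen-induced genes gave the state of androgen signalling beside the UGT2B levels. Of 9 tested, 8 were at least 2-fold lower in LnCaP-abl (6.28% of all tested genes), 4 in VCaP-CR (2.05%) and 8 in LAPC4-CR (5.37%). The list's median log2 changes were -3.51, -0.997 and -2.22, against -0.01, -0.01 and -0.02 over all tested genes. In the other direction 1 of the 9 was at least 2-fold higher in LnCaP-abl (6.26%) and 1 in VCaP-CR (2.38%). KLK3, which encodes prostate-specific antigen, had 12512 counts in LnCaP against 17 in LnCaP-abl, 7093 in VCaP against 680 in VCaP-CR, and 3096 in LAPC4 against 111 in LAPC4-CR. KLK3 was thus lower in all 3 resistant lines, whereas UGT2B15 and UGT2B17 were higher in 1 of them and lower in the other 2.

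Of 3 tested genes known as androgen-repressed, 2 were at least 2-fold higher in LnCaP-abl (6.26% of all tested genes). In VCaP-CR and LAPC4-CR 0 passed in either direction. Of all tested genes, 2.38% were higher and 2.05% lower in VCaP-CR, and 5.26% and 5.37% in LAPC4-CR. OPRK1, an opioid receptor, had 34 counts in LnCaP and 10496 in LnCaP-abl, with log2 changes of -0.07 and -0.15 in the VCaP and LAPC4 pairs. CXCR7, a chemokine receptor, had 22.3 and 94.9 scaled FPKM in LnCaP and LnCaP-abl, and its log2 changes in the other pairs were -0.96 and -0.85. The third gene of the list had log2 changes of -0.29 (LnCaP pair), 0.67 (VCaP) and -0.10 (LAPC4).

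The genes whose level ran most like the family sum over the 6 libraries, by Pearson's r of log2(scaled FPKM + 1), were SCRN1 (0.99), THAP4 (0.99), GABARAPL2 (0.99), C5orf41 (0.99) and NUS1P1 (0.98). The lowest r belonged to NEK4 (-0.99), DSG2 (-0.98) and RP3-425P12.4 (-0.97). LnCaP-abl held the highest level of each of the first 5 genes and the lowest of each of the last 3. The ranges were much narrower than that of the family sum: SCRN1 ran from 0.693 to 5.39 scaled FPKM and THAP4 from 9.19 to 19.6, against 11.3 to 543 for the sum.

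The libraries held 8661337 to 22433655 counts, of which 62.8% to 79.5% were in protein-coding genes, and each resistant line had more counts than its sensitive partner. The 9 markers of prostate luminal cells all had counts in all 6 libraries, and so did all basal, neuroendocrine and stromal markers. The luminal markers had a summed level of 318 to 1966 scaled FPKM. Basal markers summed to 7.19 to 42.0, neuroendocrine markers to 2.48 to 34.99 and stromal markers to 1.64 to 51.5. The highest stromal and neuroendocrine sums were those of VCaP-CR and rested mostly on 1 gene each: LUM had 50.1 scaled FPKM there and CHGA 21.6. Without LUM the other 4 stromal markers summed to 1.15 in VCaP and 1.35 in VCaP-CR, and without CHGA the other 4 neuroendocrine markers summed to 6.997 and 13.4.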

How the data were processed

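Whole-number read counts and FPKM values were deposited by the authors for each library, per the file headers. FPKM is the count scaled by gene length and by the total of the file, and the deposited FPKM was rebuilt from the counts within 1% for all 51698 entries of each library. The LAPC4-CR table holds no length column, and the lengths of the other 5 tables were used for it. HTSeq and hg18 are named in the submitters' processing notes. The aligner, the read length, the use of strand and the treatment of reads that match several copies are not given here in the labels or headers, which bears directly on the near-identical UGT2B genes. Every column of per-library values was mapped to a library (0 were not).

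Entries sharing a symbol were summed to 47032 symbols, and 4145 symbols of small RNA classes, recognised by the tables' gene class rather than by symbol alone, were left out. FPKM was divided by a factor per library (0.848 to 1.11), found as the median, over 11642 genes, of the ratio to each gene's geometric mean. A gene was tested where its mean scaled FPKM was 1 or more, which 16284 were. Log2 changes use a pseudocount of 1. Intervals are exact at 95% and cover counting error only.

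The members and all gene lists were chosen with earlier results of these data known. Some genes of the planned lists are not reported here and were left out of the lists' counts. The test over the pairs used the deposited counts in edgeR 4.0.16 (R 4.3.3), with quasi-likelihood fits, TMM factors and a block for the parental line, and the code was tested on simulated data. Alternatives were DESeq2 1.42.0, limma 3.58.1, RLE factors, no filter, no block, and leaving out each pair. Sums without some members were added after the data had been seen. The pairing comes from the line names. Deviations from the group means correlated at 0.46, 0.73 and 0.59 within the LnCaP, VCaP and LAPC4 pairs and at -0.48 to -0.06 between lines. Such deviations cancel out within a state by construction. Positive values within lines thus force lower values between lines, which are no separate evidence for the pairing. Each library of a state comes from a different line. With the block, p-values set the change between the states against its variation between the pairs. They do not measure variation between cultures of the same line.

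Named genes are all 7 members, up to 4 tested genes of each list and of the neighbours with the largest change in any pair, and the 5 highest and 3 lowest correlations with the family sum. Sequences come from GENCODE release 29 (GRCh38) and RefSeq (GRCh38.p14) and were aligned with Biopython 1.88.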

Additional observations from a re-analysis of the deposited data

Results flagged for a closer look

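On the log2(scaled FPKM + 1) scale, 3 members and the family sum had changes of at least 2-fold in opposite directions in the LnCaP pair and another pair. How many of all tested genes did so was not counted. The members were picked with such changes known, so nothing is read from their number. The log2(scaled FPKM + 1) scale understates changes at low levels. As plain ratios of scaled FPKM, UGT2B7, UGT2B10 and UGT2B17 also had point values past 2-fold in opposite directions in the LnCaP and LAPC4 pairs. The intervals of all of them reached under 2-fold in the LAPC4 pair: 1.08 to 5.11, 1.38 to 3.42 and 1.56 to 3.24 in that order. For UGT2B7 the interval in the LnCaP pair, 1.17 to 6.74, did so too. UGT2B7 in LnCaP and LAPC4-CR and UGT2B10 in LnCaP were also at or under the floor. The log2 change of UGT2B17 in the LnCaP pair exceeded that in the VCaP pair by 6.81. For UGT2B15 the LnCaP pair exceeded the VCaP pair by 4.93 and the LAPC4 pair by 5.27. For UGT2B10 it exceeded the VCaP pair by 4.01, although the LnCaP library held 3 counts of that gene. The family sum in the LnCaP pair exceeded that in the VCaP pair by 6.08 and that in the LAPC4 pair by 7.25. With 1 library per line and state, none of these differences was tested.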

How the results depend on the processing

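All 84 values of the members under another pseudocount (0.25 or 5), unscaled FPKM or TMM-scaled CPM kept their direction, and 75 of them kept their side of 2-fold. The 9 others lay in the VCaP and LAPC4 pairs, among them UGT2B15 in the VCaP pair (-1.05, or -0.97 unscaled and -0.75 with a pseudocount of 5).

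The family sum kept its direction throughout. In the LnCaP pair its log2 change of 4.69 became 4.45 with a pseudocount of 5, 4.47 with UGT2A genes and UGT2 pseudogenes added, 3.05 without UGT2B17, 0.80 without UGT2B15 and UGT2B17, and 4.99 without UGT2B11 and UGT2B28. The VCaP value of -1.39 became -1.23 with a pseudocount of 5. The LAPC4 value of -2.57 became -2.24 with a pseudocount of 5, -2.83 without UGT2B15 and UGT2B17, and -1.33 without UGT2B11 and UGT2B28.

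Over the 3 pairs, edgeR called 0 genes higher and 0 lower. DESeq2 called 82 higher and 55 lower, and edgeR with no filter on low values called 94 and 58; both placed UGT2B11 under 5%, and the cause of the difference in counts was not tested. Leaving out 1 pair gave 0 to 10 genes higher and 1 to 14 lower, with 0 of the 7 members called in any of these fits. With RLE factors, with limma and without the replicate block, 0 genes were called in either direction. A count of 0 says nothing about stability, and without the block the fitted log2 change of UGT2B17 moved from 0.15 to 4.41 and that of UGT2B15 from 0.01 to 1.73, while UGT2B11 went from -2.08 to -2.73 with a larger SE (0.43 to 1.49). Members with under 50 counts in a library, such as UGT2B7 and UGT2B28 outside the lines that lead for them, have wide intervals, and depth limits their order.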
